A study of Rattus norvegicus with 16 samples.

Results

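The NDEA response of liver was compared with that of bone marrow, gene by gene, for the genes counted in both tissues. A gene entered when at least 4 liver libraries and at least 4 marrow libraries held 10 or more counts, which left 7941 of 32623 gene records. For each gene the quantity described is the difference between tissues: NDEA minus control in liver, minus NDEA minus control in marrow, on the log2 scale. A value above 0 means that the gene stood higher in NDEA liver, relative to its control, than in NDEA marrow relative to its own. All groups were female Big Blue rats, transgenic for a vector that carries the cII and lacI mutation reporters, 6 weeks old on arrival and acclimated for 1 week. Controls received 0 and treated rats 10 mg/kg/day of NDEA (N-nitrosodiethylamine) by gavage for 28 days, and tissue was taken 3 days after treatment ended. Liver control, liver NDEA, marrow control and marrow NDEA held 4 libraries each, 16 in all. The labels give 6 rats per dose group, 3 per cage, but not whether liver and marrow libraries of 1 number came from 1 rat, so p-values measure the spread between these libraries.

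NDEA is a nitrosamine that does not act on DNA by itself. Cytochrome P450 enzymes, chiefly those of hepatocytes, oxidise it to an ethylating agent, and the alkylated bases that follow are removed by O6-methylguanine-DNA methyltransferase and by base excision. Damaged cells stabilise p53, which turns on genes such as Cdkn1a, a cyclin-dependent kinase inhibitor, and Ccng1, cyclin G1. Adult liver is largely quiescent and marrow is among the most proliferative tissues. Genes used in G2 and M phase are turned on in cycling cells by a complex of MuvB, MYBL2 (B-Myb) and FOXM1, and are held off in resting cells by the DREAM complex, both of which reach promoters through an element called CHR, with CCAAT boxes bound by NF-Y nearby.

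The tissue labels fitted the defining transcripts. Albumin (Alb) stood at 67800 to 90060 CPM in the liver libraries and at 0 to 0.4385 CPM in marrow. Myeloperoxidase (Mpo) stood at 395.3 to 606.3 CPM in marrow and at 0 in liver. For Alb and Mpo, CPM are counts relative to the total of each library, and elsewhere counts relative to its scaled size. Totals ran from 2162182 counts in marrow control 1 to 6863592 in liver NDEA 3. Marrow control 3, NDEA 3 and NDEA 4 stood apart from the other marrow libraries: 13.0 to 15.8% of their counts fell on mitochondrially encoded genes against 6.41 to 11.3% in the other 5, and NDEA 4 and NDEA 3 had the fewest genes detected, 9101 and 10144. Results are therefore also given without these 3 libraries, an alternative added after the data had been seen. The libraries were made from bulk tissue, so fewer cells of a type and less RNA per cell cannot be told apart.

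Promoters of 6 genes with a difference above 0 are printed because they show the elements searched for in all promoters: CHR and CCAAT in cell cycle genes, and for comparison a p53 decamer in a p53 target and an antioxidant response element in an NRF2 target. Each runs from 250 bases before to 50 bases after the RefSeq start on GRCr8, 5′ to 3′ on the gene's strand. Capitals mark matches, on either strand, of CHR (TTTGAA), its variant (TTCGAA), the CCAAT box (CCAAT), an E2F core (TTCCCGC), the p53 decamer or an antioxidant response element (TGACNNNGC).
Smc4: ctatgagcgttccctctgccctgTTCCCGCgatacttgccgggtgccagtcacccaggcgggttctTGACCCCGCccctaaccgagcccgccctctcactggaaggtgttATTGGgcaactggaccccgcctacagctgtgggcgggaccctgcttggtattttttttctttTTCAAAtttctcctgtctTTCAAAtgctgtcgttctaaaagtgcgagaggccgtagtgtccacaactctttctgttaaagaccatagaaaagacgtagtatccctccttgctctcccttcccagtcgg
Mki67: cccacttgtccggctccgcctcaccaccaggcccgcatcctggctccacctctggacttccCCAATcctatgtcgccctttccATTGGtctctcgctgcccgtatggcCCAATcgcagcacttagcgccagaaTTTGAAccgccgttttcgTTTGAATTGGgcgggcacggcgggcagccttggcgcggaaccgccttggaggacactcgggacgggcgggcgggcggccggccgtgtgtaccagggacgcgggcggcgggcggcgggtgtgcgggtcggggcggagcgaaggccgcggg
Top2a: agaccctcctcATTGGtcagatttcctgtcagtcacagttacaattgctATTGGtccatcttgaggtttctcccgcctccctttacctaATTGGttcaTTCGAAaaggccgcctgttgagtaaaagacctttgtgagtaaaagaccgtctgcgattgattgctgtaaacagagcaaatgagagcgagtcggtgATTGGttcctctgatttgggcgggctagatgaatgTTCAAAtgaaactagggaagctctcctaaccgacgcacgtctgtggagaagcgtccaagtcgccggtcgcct
Cdc20: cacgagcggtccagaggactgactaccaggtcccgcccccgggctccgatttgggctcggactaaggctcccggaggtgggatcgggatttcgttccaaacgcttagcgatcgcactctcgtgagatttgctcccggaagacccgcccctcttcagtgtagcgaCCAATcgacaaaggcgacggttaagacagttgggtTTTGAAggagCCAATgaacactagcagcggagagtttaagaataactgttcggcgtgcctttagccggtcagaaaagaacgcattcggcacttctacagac
Ccng1: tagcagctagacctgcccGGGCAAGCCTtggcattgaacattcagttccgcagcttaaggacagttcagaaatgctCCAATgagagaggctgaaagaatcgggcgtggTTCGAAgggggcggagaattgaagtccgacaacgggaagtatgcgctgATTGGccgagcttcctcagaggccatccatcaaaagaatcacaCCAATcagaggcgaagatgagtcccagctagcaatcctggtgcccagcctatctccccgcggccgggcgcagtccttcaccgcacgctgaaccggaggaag
Gstp1: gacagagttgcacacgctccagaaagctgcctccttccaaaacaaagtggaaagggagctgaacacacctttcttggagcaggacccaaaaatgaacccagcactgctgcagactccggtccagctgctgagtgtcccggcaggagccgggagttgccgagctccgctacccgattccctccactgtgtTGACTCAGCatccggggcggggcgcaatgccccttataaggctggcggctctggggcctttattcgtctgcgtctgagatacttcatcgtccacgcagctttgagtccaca
The windows are chr2:155550012-155550311 (Smc4, plus strand), chr1:199952544-199952843 (Mki67, minus strand), chr10:84473044-84473343 (Top2a, minus strand), chr5:137255750-137256049 (Cdc20, minus strand), chr10:25684827-25685126 (Ccng1, minus strand) and chr1:210769656-210769955 (Gstp1, minus strand). Smc4 holds CHR matches 78 and 60 bases before the start, Cdc20 one at 51, and Top2a one at 22 with a variant at 152. In Mki67 the CHR matches lie 117 and 99 bases before the start, and the second overlaps a CCAAT box. Ccng1 holds a p53 decamer 232 bases before its start, and Gstp1 an antioxidant response element 61 bases before its own. The Mybl2 window (chr3:172124555-172124854, plus strand) holds none of these letters. A match describes the letters of the window and is neither a binding site nor a cause. The search took these letters alone, so a window without a match may still hold a variant of an element.

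CHR matches stood in 23 of the 36 promoters (63.9%) of cell cycle genes whose tissue difference passed the test, and in 23 of the 90 (25.6%) of cell cycle genes whose difference did not. The share was 11% over the 6458 promoters of all 7941 genes and 18.3% over all 33469 promoters of the table. In genes called above 0 outside the cell cycle lists it was 11.8% of 102 promoters. Of the 43 cell cycle genes that passed, 30 are on the mitosis list, so the cell cycle sets also differ in their mix of lists. CCAAT boxes stood in 75% and 51.1% of the same cell cycle sets, and in 38.7% of the promoters of all 7941 genes. The E2F core was in 11.1% of the cell cycle genes that passed and 24.4% of those that did not, against 8.81% of the 7941. Of the 8 p53 list genes that passed, 4 hold a p53 decamer. It was in 6.55% of the promoters of the 7941 genes, 7.98% of all promoters of the table and 10.9% of the genes called above 0. Its share in p53 list genes that did not pass was not counted. The antioxidant response element was in 15.2% of the genes called above 0 and in 15.3% of the 7941, and in 1 of the 4 NRF2 targets that passed, Gstp1. These are descriptions of sets chosen by their differences. Of the 7941 genes, 81.3% matched a promoter.

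The tissue difference passed the test (limma-voom, adjusted p below 0.05 over all 11245 genes tested) for 192 genes, 2.42% of the 7941, against 2.30% of all genes tested. It lay above 0 for 173 (2.18%, and 2.09% of all genes tested) and below 0 for 19 (0.239%, and 0.213%). Among the 7941, 48 genes had no library at 10 counts in 1 of the 4 groups. They entered through the other treatment group of that tissue alone, so the filter favoured a difference, although not all of them passed. Without these 168 of 7893 passed (2.13%), 150 above 0 (1.90%) and 18 below (0.228%). Liver estimates were above 0 for all 173, and marrow estimates below 0 for 147 of them. In 118 of the 173 the liver change itself passed the test and the marrow change did not, with a median liver change of 3.06 and a median marrow change of -0.35 (log2). In 10 the marrow change passed and the liver change did not, and in 45 neither did, although their difference did. Both changes were called for 0 genes (limma-voom and limma-trend), and 200 had an unadjusted p below 0.05 in both tissues. The liver change passed for 271 genes (3.41%, and 4.60% of all genes tested), 181 up (2.28%, and 2.59%) and 90 down (1.13%, and 2.01%). The marrow change passed for 38 (0.479%, and 0.560%), 11 up (0.139%, and 0.107%) and 27 down (0.340%, and 0.454%). Of the liver rises 65.2% also differed from marrow, and of the liver falls 8.89%. These shares come from the fit without centring on the median difference and were not counted after it. Centring changed the calls to 106 above 0 and 91 below. A fall without a called difference is not thereby shared with marrow. Of the 90 falls, 5 had an interval of the difference within 1 log2 unit of 0 on each side.

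**Figure D1:**
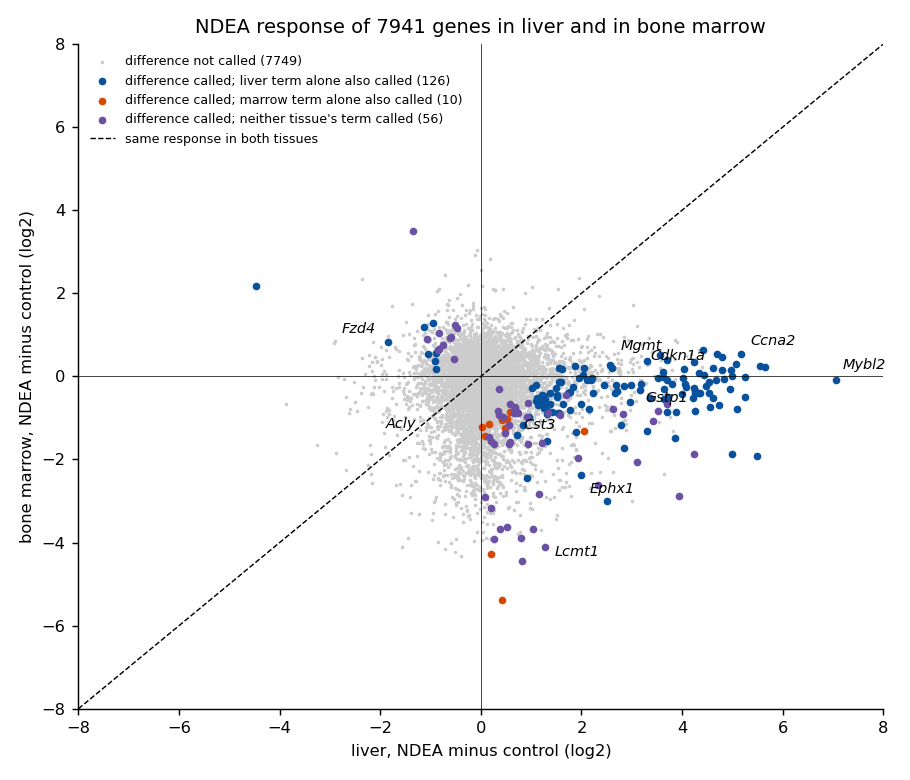
Change from control to NDEA in liver (x axis, log2) against the change in bone marrow (y axis, log2), 1 point per gene for 7941 genes, with genes coloured by which terms passed the test and the dashed line where both tissues respond alike. The 126 genes whose liver change was also called have marrow changes from -3.00 to 2.18 with a median of -0.29, and the 10 called in marrow lie below it.

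The share above 0 depended on the centring. It was 91.4% with scaling by library totals alone, 88.9% with trimmed means within each tissue and 84.1% by median of ratios. The median difference over all genes tested was 0.32, with 0.02 in liver and -0.24 in marrow, and after centring on that median 106 genes were above 0 and 91 below (53.8% against 90.1% above 0). Of the 192, 125 were also called after centring. Without the 3 marrow libraries 203 genes were called, 181 above 0 and 22 below, and 139 of the 192 were among them. Without marrow NDEA 3 and 4 alone, 76 were called. Leaving out liver control 1, 3 or 4 gave 116, 122 and 84 calls, and leaving out marrow control 3 or marrow NDEA 2 gave 451 and 304. In all 16 such fits 66 genes were called, 61 above 0 and 5 below.

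**Figure D2:**
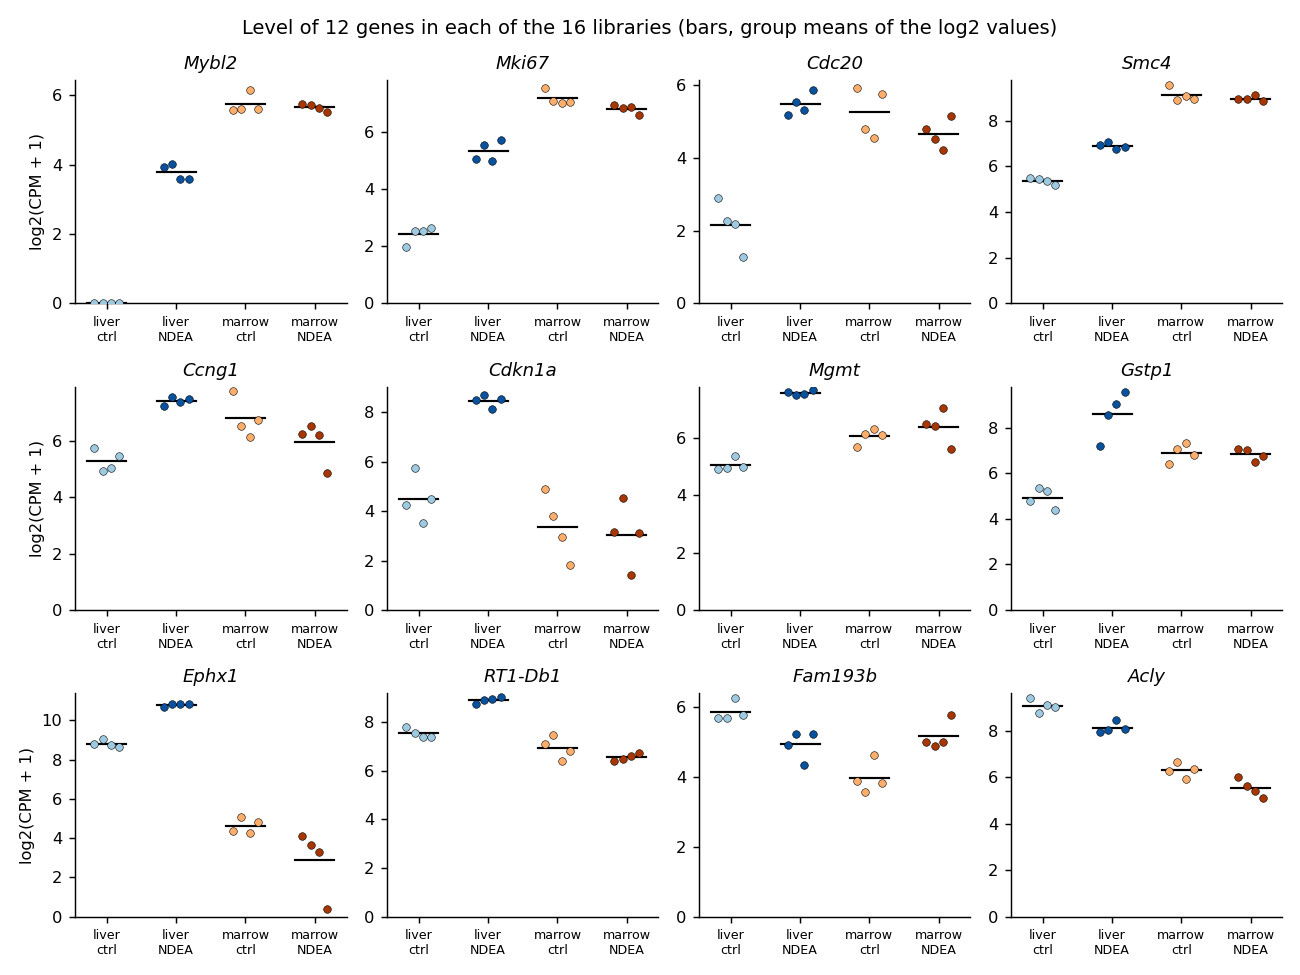
Level of 12 genes as log2(CPM + 1) in each of the 16 libraries, 4 points per group with bars at the group means. Mybl2 is at 0 in the 4 liver controls, and Mki67, Smc4, Ccng1, Mgmt and Gstp1 are higher in every NDEA liver than in every control liver.

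Mybl2, the B-Myb subunit of the activating MuvB complex, had the largest difference among the cell cycle regulators. It was at 0 CPM in all 4 liver controls and at 14.1, 15.1, 11.0 and 11.0 CPM in the NDEA livers, where a floor of 3 counts over the 4 controls makes it at least 90.3-fold higher. In marrow it stood at 46.5, 47.8, 69.5 and 47.9 CPM in controls and 52.3, 51.2, 48.1 and 45.1 CPM after NDEA. The NDEA livers were thus apart from their controls, and the marrow groups overlapped. The fitted difference was 7.14 (SE 0.74, adjusted p = 1.53e-05), a value that depends on the prior count. Mybl2 entered with counts in 1 liver group alone, so that it was 1 of the 48 genes whose entry favoured a difference. Of the 25 regulators 3 passed, all above 0 (12%, against 2.18% of all 7941 genes). Beside Mybl2 these were Pkmyt1, a kinase that inhibits CDK1 (4.66), and Cdkn2c, the CDK inhibitor p18 (3.90).

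Of 51 genes of mitosis and the spindle, 33 rose in liver, 0 fell there, and 0 passed in marrow in either direction. The difference passed above 0 for 30 (58.8%, against 2.18% of all 7941 genes) and below 0 for 0. The median difference was 3.42 against 0.23 over all 7941 genes. The median change was 3.30 in liver and -0.01 in marrow, and 48 of 51 estimates were above 0. Of the 51, 5 were among the 48 genes that entered through 1 treatment group of a tissue alone. Without them 26 of 46 passed, with a median difference of 3.17. Without the 3 marrow libraries 27 were called. The count fell to 17 without liver control 1 and 12 without liver control 4.

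Mki67 encodes the Ki-67 protein that coats mitotic chromosomes. It stood at 2.90, 4.79, 4.73 and 5.20 CPM in control livers and at 31.9, 45.5, 30.8 and 51.1 CPM in NDEA livers. In marrow it stood at 187, 135, 129 and 132 CPM in controls and at 122, 115, 118 and 95.7 CPM after NDEA. Both pairs of groups were apart, in opposite directions, but only the liver change passed (3.15, adjusted p = 3.05e-04, marrow adjusted p = 0.322, limma-voom). The difference was 3.49 (SE 0.53, 95% interval 2.39 to 4.59, adjusted p = 0.00202).

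Top2a, the topoisomerase that untangles sister chromatids, was uneven among the controls, at 3.24, 19.1, 10.1 and 0.2 CPM against 58.8, 93.1, 55.0 and 107 CPM in NDEA livers. Its marrow levels were 433, 335, 244 and 309 CPM in controls and 211, 266, 236 and 249 CPM after NDEA, which overlapped. The difference was 4.72 (SE 0.82, adjusted p = 0.00498, limma-voom). Cdc20, which activates the anaphase-promoting complex, stood at 6.47, 3.83, 3.55 and 1.40 CPM in control livers and 35.0, 45.5, 39.0 and 58.0 CPM in NDEA livers. Marrow held 22.6 to 59.6 CPM in controls and 17.6 to 34.5 CPM after NDEA, and the difference was 4.18 (SE 0.73, adjusted p = 0.00505). Cenpf, a kinetochore protein, had a difference of 5.42 (SE 1.05, adjusted p = 0.00846), with control livers at 0 to 14.2 CPM and NDEA livers at 21.9 to 57.5 CPM. Its call ended without liver control 4 (adjusted p = 0.0512, limma-voom) and with limma-trend and a prior of 0.5 (adjusted p = 0.0893).

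Cdk1, the kinase that drives entry into mitosis, had a difference of 6.10 (SE 1.58, adjusted p = 0.0391), and 16 of its 32 alternatives ended the call. Livers held 0 to 4.40 CPM in controls and 19.7 to 51.5 CPM after NDEA, while marrow NDEA 4 stood at 0.842 CPM against 24.4 to 40.3 CPM in the other NDEA marrows. The call ended when any of 9 libraries was left out, 1 at a time (liver control 1 to 4, liver NDEA 2 and 4, marrow control 1, 2 and 4), with adjusted p up to 0.115. Gtse1, a microtubule protein that acts in G2, and Cenpw, a centromere protein, had differences of 4.83 and 4.74. Gtse1 lost its call without liver control 1, 2 or 3, and Cenpw without liver control 1 or 4 or liver NDEA 2 or 4. Over all 32 alternatives 6 ended the Gtse1 call and 11 the Cenpw call, limma-trend and replicate blocks among the latter.

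In the cell cycle genes whose difference passed, liver levels stayed mostly below those of marrow. Over the 43 called genes of the mitosis, replication, nucleotide, regulator and condensin lists, control livers stood at a median of 3.77% of the control marrow level and NDEA livers at 22.6%, with a range of 2.64 to 116%. Cdc20 (109%) and Ncapg (116%) were the 2 that exceeded it. Mki67 went from 3.02 to 27.3%, Top2a from 2.47 to 23.8% and Smc4 from 7.07 to 20.9%, while Ccna2 reached 4.72% and Cdc6 2.64%. Among the 43, marrow changes ran from -1.97 to 0.54 with a median of -0.14, and liver changes from 1.55 to 7.05 with a median of 3.71. These genes were chosen by their difference, and 7 of them entered through 1 treatment group of a tissue alone. Over the other 36 the median liver change was 3.62 and NDEA livers stood at a median of 23.2% of the control marrow level. The 111 genes of these lists that did not pass had a median difference of 0.72 (-1.90 to 5.98) and a median liver change of 0.62.

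Some of these genes had almost no counts in control liver. Fancb, of the Fanconi core complex, and Cdc6, which loads the replicative helicase, were at 0 CPM in all 4 control livers. They stood at 2.33 to 4.55 and 1.66 to 4.76 CPM in NDEA livers, at least 25.8-fold and 23.6-fold higher against the same floor. Aurkb, the kinase of the chromosomal passenger complex, stood at 0 to 0.6 CPM in controls and 4.27 to 10.1 CPM after NDEA. Ccna2, cyclin A2, stood at 0 to 1.15 CPM in control and 4.32 to 8.69 CPM in NDEA livers. In marrow Ccna2 was higher in each NDEA library (170 to 238 CPM) than in each control (123 to 158 CPM), a change of 0.54 that did not pass (adjusted p = 0.105, limma-voom). In liver these 4 genes entered through the NDEA group alone, as Mybl2 did, so their entry favoured a difference.

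Among condensin, cohesin and related SMC genes, which shape and hold chromosomes, the calls fell on condensin subunits, though not on all of them. Smc4, the core ATPase subunit shared by both condensins, stood at 43.9, 42.1, 39.6 and 35.6 CPM in control livers and 122, 134, 107 and 114 CPM in NDEA livers. Marrow held 762, 481, 547 and 491 CPM in controls and 495, 490, 555 and 463 CPM after NDEA, which overlapped. The difference was 1.69 (SE 0.26, 95% interval 1.16 to 2.22, adjusted p = 0.00202), and 1.70 without the 3 marrow libraries (limma-voom). Its partner Smc2 differed by 1.74 (SE 0.38, adjusted p = 0.0161), with 14.4 to 22.2 CPM in control and 42.5 to 71.3 CPM in NDEA livers. Smc2 was not called without liver control 4 (adjusted p = 0.0514, limma-voom) or after centring.

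Ncapg and Ncaph, non-SMC subunits of condensin I, had differences of 5.87 and 5.26. So 4 of the 24 list genes passed (16.7%, against 2.18% of all 7941 genes called above 0), and all 4 encode condensin subunits. Ncaph was among the 48 genes that entered through 1 treatment group of a tissue alone, and without such genes 3 of 23 passed. Ncapg was not called without the 3 marrow libraries (adjusted p = 0.0711), nor without liver control 1, 3 or 4, and the list count went to 2 without liver control 1 and 1 without liver control 4. The condensin II subunits Ncapg2 (2.66), Ncapd3 (1.68) and Ncaph2 (-0.85) did not pass. Nor did the cohesin subunits Smc1a (0.02), Rad21 (0.02) and Smc3 (0.56) and the SMC5/6 subunits Smc5 (-0.02) and Smc6 (-0.23). The list's median difference was 0.08.

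Of 39 genes of replication and its licensing 3 passed, all above 0 (7.69%, against 2.18% of all 7941 genes). Of the estimates 35 were above 0, and the median difference was 1.06, with 1.04 in liver and 0.04 in marrow. Lig1, which joins Okazaki fragments, had a difference of 1.63 and Cdc6 one of 4.77. The Cdc6 call ended with the 7941 genes fitted alone (adjusted p = 0.0576, limma-voom). Mcm2, a helicase subunit, did not pass: livers held 4.26 to 10.3 CPM in controls and 9.93 to 22.1 CPM after NDEA, and its difference of 1.77 (95% interval 0.54 to 3.00) had an adjusted p of 0.126. Gmnn, the licensing inhibitor geminin, differed by 3.90 (SE 1.05, adjusted p = 0.0492). Its marrow levels were 11.4 to 23.6 CPM in controls and 1.01 to 7.01 CPM after NDEA, with no overlap, and its liver groups overlapped. The Gmnn call ended in 22 of 32 alternatives. Among these were the fits without any of 10 libraries, 1 at a time, and without the 3 marrow libraries (adjusted p = 0.109, limma-voom). In nucleotide supply 3 of 15 passed (20%), Dut (1.85), Tk1 and Tyms, which make thymidylate or keep uracil out of DNA.

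Of the p53 targets 8 of 23 had a difference above 0 that passed (34.8%, against 2.18% of all 7941 genes) and 0 below. The list's median change was 1.18 in liver and -0.04 in marrow, and its median difference 0.49 against 0.23 over all 7941 genes. Without the 3 marrow libraries 8 were called, and without marrow control 2 the count was 5.

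Ccng1, a p53 target that takes part in switching p53 off again, stood at 53.5, 29.3, 31.8 and 43.6 CPM in control livers and 152, 189, 168 and 180 CPM in NDEA livers. Marrow controls held 221, 92.5, 69.8 and 108 CPM and NDEA marrows 75.0, 91.6, 74.3 and 28.3 CPM. The liver groups were apart and the marrow groups overlapped, with control 1 highest and NDEA 4 lowest. The difference was 2.94 (SE 0.46, 95% interval 1.99 to 3.88, adjusted p = 0.00202), and 2.67 without the 3 marrow libraries (limma-voom).

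Cdkn1a, which encodes p21, stood at 10.6 to 52.3 CPM in control livers and 284 to 411 CPM in NDEA livers. In marrow it was 29.0, 13.1, 6.84 and 2.49 CPM in controls and 7.86, 22.1, 1.68 and 7.58 CPM after NDEA, so that the marrow spread was wide. Its difference of 4.05 (SE 0.90, adjusted p = 0.0164) was not called without marrow control 1 or 2 or the 3 marrow libraries (adjusted p = 0.0668, limma-voom). Nor was it called without marrow NDEA 3 and 4 together. Mdm2, the ubiquitin ligase of p53, differed by 2.15 (SE 0.44, adjusted p = 0.0112), with 14.8 to 29.8 CPM in control livers, 64.4 to 86.3 CPM in NDEA livers and 12.1 to 34.1 CPM over all marrows.

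Btg2, an antiproliferative factor, differed by 2.23 (SE 0.40, adjusted p = 0.00556), with marrow at 66.1 to 104 CPM throughout. Rps27l, a ribosomal protein paralogue under p53 control whose reads may be shared with near-identical copies, differed by 2.28 (SE 0.43, adjusted p = 0.00737, limma-voom). The other 3 were Ckap2 (4.27), Aen, a nuclease (2.14), and Phlda3, an AKT inhibitor (4.56). Bax (0.39), Fas (0.07) and Pmaip1 (-0.12), which act in apoptosis, did not pass. Liver estimates of Bax and Fas, 1.02 and 1.18, stood beside marrow estimates of 0.63 and 1.12. In marrow 0 of the 23 p53 targets passed in either direction. A difference that did not pass does not show that the tissues responded alike. Of 25 apoptosis genes 0 passed with limma-voom or limma-trend, and 5 had an unadjusted p below 0.05.

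Mgmt, the methyltransferase that removes alkyl groups from guanine, was the 1 of 18 direct reversal and base excision genes that passed (5.56%, against 2.18% of all 7941 genes). It stood at 29.0, 29.7, 40 and 30.4 CPM in control livers and 192, 180, 183 and 200 CPM in NDEA livers. Marrow held 49.9, 70.0, 78.7 and 67.7 CPM in controls and 88.0, 84.2, 130 and 47.7 CPM after NDEA. All NDEA livers lay above every marrow library, whereas all control livers lay below. The difference was 2.28 (SE 0.35, 95% interval 1.55 to 3.01, adjusted p = 0.00202, limma-voom). Of 21 nucleotide excision and mismatch repair genes 0 passed with limma-voom or limma-trend (2 at an unadjusted p below 0.05), with a median difference of -0.16. Fancb, which in liver entered through the NDEA group alone, was the 1 of 26 recombination, Fanconi and checkpoint genes that passed (3.85%).

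Of 26 NRF2 targets, which defend against electrophiles and oxidants, 4 passed, all above 0: Gstp1, Ephx1, Gstm1 and Gclc. The share was 15.4%, against 2.18% of all 7941 genes, and the list median 0.50 against 0.23. Without the 3 marrow libraries 5 passed, and 7 without marrow control 3 alone. Gstp1, a glutathione transferase scarce in normal hepatocytes, stood at 26.9, 39.8, 36.1 and 20 CPM in control livers and 146, 382, 531 and 756 CPM in NDEA livers. Marrow stood at 84.4 to 163 CPM in controls and 90.8 to 134 CPM after NDEA. The difference was 3.79 (SE 0.60, adjusted p = 0.00246, limma-voom).

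Gstm1, another glutathione transferase, rose from 511 to 744 CPM in control livers to 2060 to 2410 CPM, and its marrow held 10.0 to 27.9 CPM in controls and 2.02 to 20.2 CPM after NDEA. Its difference was 3.23, and 2.39 without the 3 marrow libraries, and reads of Gstm copies may be shared. Ephx1, microsomal epoxide hydrolase, went from 404 to 540 CPM to 1670 to 1860 CPM in liver. In marrow it was 19.4, 33.3, 18.2 and 27.2 CPM in controls and 16.1, 11.7, 8.80 and 0.337 CPM after NDEA, with no overlap and NDEA 4 far below the others. The Ephx1 difference of 4.34 (SE 0.70, adjusted p = 0.00252, limma-voom) was 3.03 without the 3 marrow libraries. It was not called with limma-trend and a prior of 0.5 (adjusted p = 0.0508). Nqo1, a quinone reductase and classical NRF2 target, did not pass: its difference was 1.31 (95% interval -0.19 to 2.81, adjusted p = 0.365), with 10.2 to 24.6 CPM in control and 29.1 to 49.9 CPM in NDEA livers and 2.71 to 7.65 CPM over all marrows.

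Of 6 MHC class II genes 5 passed, all above 0 (83.3%, against 2.18% of all 7941 genes). The count was 5 or 6 in each fit that left out a library. RT1-Db1, a class II beta chain, stood at 222, 187, 164 and 165 CPM in control livers and 422, 477, 494 and 524 CPM in NDEA livers. Marrow held 135, 175, 82.3 and 112 CPM in controls and 82.4, 88.5, 95.1 and 105 CPM after NDEA, and the difference was 1.78 (SE 0.27, adjusted p = 0.00202). Cd74, the invariant chain that guides class II molecules, differed by 1.83 (SE 0.33, adjusted p = 0.00582), and 1.39 without the 3 marrow libraries. RT1-Da differed by 2.88 (SE 0.53, adjusted p = 0.00600, limma-voom), with 115, 80.1, 20.3 and 63.2 CPM in marrow controls and 22.9, 42.6, 18.3 and 7.58 CPM after NDEA. RT1 genes have near-identical copies among which reads may be split. Summed macrophage and Kupffer markers (20 genes) stood at 1050 to 1260 CPM in control livers and 1150 to 1340 CPM in NDEA livers, and at 2840 to 5690 CPM in marrow controls and 2430 to 4800 CPM in NDEA marrows. Summed B lineage markers in liver were 7.49 to 16.2 CPM in controls and 10.8 to 20.1 CPM after NDEA, and in marrow 643 to 918 CPM and 717 to 1330 CPM, with groups that overlapped. The part of these cells in the class II difference was not tested.

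Other genes high in NDEA liver outside these groups were Rbp7, a retinol-binding protein (difference 5.75, SE 1.09, adjusted p = 0.00737), Cd44, a hyaluronan receptor (4.76, SE 0.97, adjusted p = 0.0112), and Hsd11b1, which regenerates glucocorticoid (5.51, SE 1.23, adjusted p = 0.0170, limma-voom). Rbp7 stood at 0 to 7.00 CPM in control and 15.1 to 25.9 CPM in NDEA livers, and Cd44 at 0 to 3.07 and 7.31 to 15.4 CPM, with marrow groups that overlapped for both. Hsd11b1 rose from 19.1 to 60.1 CPM to 177 to 241 CPM in liver, and in marrow stood at 2.28 to 4.65 CPM in controls and 0 to 3.58 CPM after NDEA. The 2 NDEA marrows at 0 were NDEA 3 and 4, and without either of them the Hsd11b1 difference lost its call (adjusted p up to 0.0569). Without the 3 marrow libraries it was 3.26 (adjusted p = 0.201), and without marrow NDEA 3 and 4 together 3.08 (adjusted p = 0.272). With limma-trend and a prior of 0.5 neither Rbp7 nor Cd44 was called, and over their alternatives 2 ended the Rbp7 call (adjusted p up to 0.0588) and 3 the Cd44 call (up to 0.0565). App, Atp6v1d, Lgals3, Itga6, Csad, S100a6, S100a10, Ran and Lgals3bp, named after their values were seen, were called above 0 in every alternative in which they were tested, as were 28 further genes, of which 27 lay above 0.

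**Figure D3:**
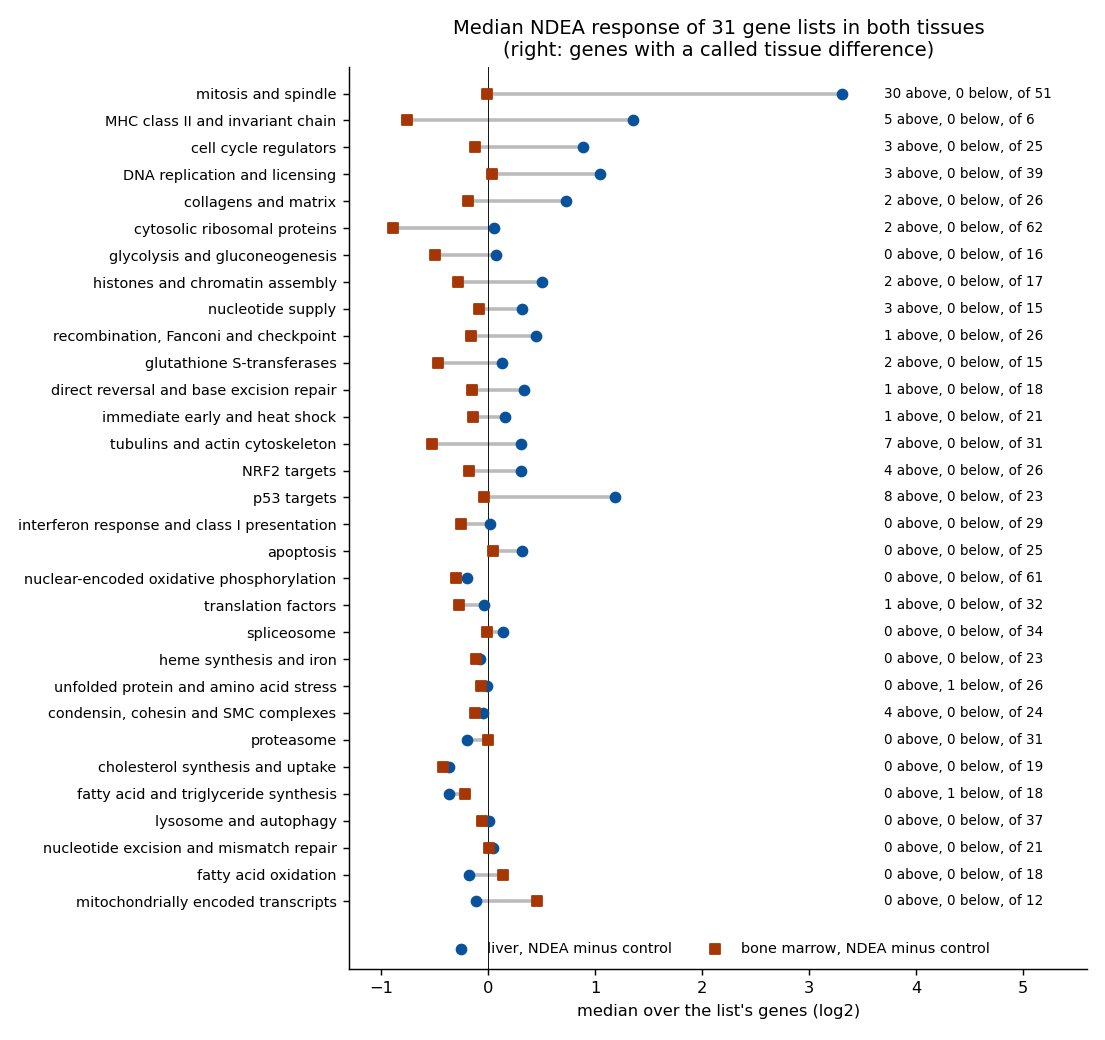
Median change from control to NDEA (x axis, log2) over the genes of 31 lists (y axis), circles for liver and squares for bone marrow, with the number of genes of each list whose tissue difference was called. Mitosis and spindle has the widest gap, 3.30 in liver against -0.01 in marrow, and mitochondrially encoded transcripts, at -0.11 against 0.45, stand at the other end.

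Of 31 tubulin and actin genes 7 passed, all above 0 (Tuba1b, Tpm1, Vim, Tubb6, Tubb5, Stmn1 and Cfl1). The share was 22.6%, against 2.18% of all 7941 genes. The list's median change was 0.31 in liver and -0.53 in marrow. Tuba1b, an alpha-tubulin with near-identical copies, went from 114 to 156 CPM to 255 to 307 CPM in liver. In marrow it was 2000, 1570, 1320 and 1780 CPM in controls and 1210, 1350, 1100 and 937 CPM after NDEA. The difference was 1.64 (SE 0.23, adjusted p = 0.00155, limma-voom). Vim, an intermediate filament of mesenchymal and blood cells, differed by 2.04 and Tpm1, a tropomyosin, by 1.51. Neither was called without marrow NDEA 3 and 4 (adjusted p = 0.0636 and 0.0656), when the list count was 1, and that count was 4 after centring and 4 without liver control 2, 3 or 4, liver NDEA 1, marrow control 4 or marrow NDEA 3.

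In 55 genes with a difference above 0 the liver change was not called, and in 41 of them the marrow change was larger in size than the liver change. In the other 14, Cdk1 and Stmn1 among them, the liver change was the larger. The 10 whose marrow change passed were Cst3, Lmna, Sh3bgrl3, Hnrnpl, Ddc, Pcmt1, Itm2b, Ctdnep1, Eif2s1 and Tpm2, named after their values were seen. Cst3, a secreted cysteine protease inhibitor, stood at 475, 391, 254 and 320 CPM in marrow controls and 246, 223, 181 and 134 CPM after NDEA, with no overlap. It changed by -0.86 in marrow and 0.59 in liver, and the difference of 1.45 had an adjusted p of 0.00556 (limma-voom). Lmna, the nuclear lamin A/C, stood at 189, 113, 90.3 and 124 CPM in controls and 73.7, 76.1, 53.9 and 43.0 CPM after NDEA, and Itm2b, a membrane protein, at 416, 356, 141 and 253 CPM and 124, 141, 98.3 and 102 CPM. In both, control 3 was the lowest marrow control.

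Lcmt1, which methylates the phosphatase PP2A, was among the 45 genes with neither change called. It stood at 13.6, 7.88, 2.28 and 14.9 CPM in marrow controls and at 1.70, 3.27, 0 and 0 CPM after NDEA, and at 4.14 to 27.8 CPM in control and 28.4 to 41.7 CPM in NDEA livers. Its difference of 5.38 (adjusted p = 0.0258) was 3.45 without the 3 marrow libraries (adjusted p = 0.165, limma-voom). The call also ended without marrow control 1, 2 or 4 or marrow NDEA 3 or 4, and in 10 of 32 alternatives in all.

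The lowest of these marrow levels were in the libraries with the highest mitochondrial share. Over the 10 genes the median level relative to the marrow controls was 0.47, 0.17, -0.54 and -0.05 (log2) in controls 1 to 4 and -0.92, -0.89, -1.29 and -1.49 in NDEA 1 to 4. Over the 45 genes it was 0.39, 0.12, -0.44 and 0.03 in controls and -0.87, -0.65, -1.21 and -2.33 after NDEA. Control 3, with the highest share among the controls, was the lowest control in both sets. NDEA 2, at 8.37%, was lower than control 2, at 8.65%. Both sets were chosen by their difference, and all 10 and all 45 marrow estimates lay below 0. Lower medians in NDEA than in control marrow therefore follow from that choice. Without the 3 marrow libraries 6 of the 10 genes and 30 of the 56 with neither change called, in both directions, were still called. The numbers were 1 of 10 and 2 of 56 without marrow NDEA 3 and 4, against 73 of the 126 genes whose liver change was called. Summed skeletal muscle markers (18 genes) also stood lower in NDEA marrow, at 91 to 139 CPM against 269 to 629 CPM in controls. In liver this sum was higher, and it too was lower after NDEA, at 1280 to 1470 against 1580 to 2060 CPM. Of its 18 genes 11 were at 0 in control livers, so a few genes made up the liver sum. Summed T and NK markers (18 genes) in marrow were at 41.7 to 125 CPM after NDEA against 87.8 to 220 CPM, with groups that overlapped. The part of library quality and of the mix of cells in the marrow values was not tested.

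**Figure D4:**
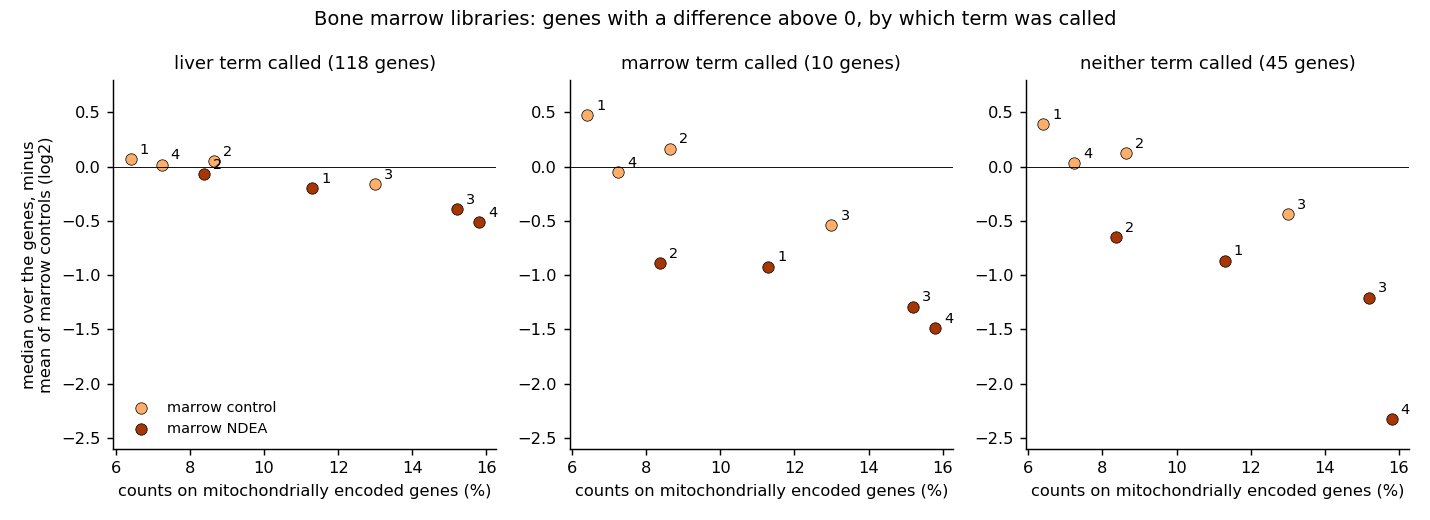
Median level of called genes with a difference above 0 in each bone marrow library, relative to the mean of the marrow controls (y axis, log2), against the library's percentage of counts on mitochondrially encoded genes (x axis), with replicate numbers beside the points. The 118 genes whose liver change was called stay between -0.52 and 0.07, while the 10 genes called in marrow reach -1.49 and the 45 with neither change called reach -2.33 in NDEA 4.

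Ribosomal protein genes had estimates above 0 in 52 of 62, with a median of 0.05 in liver and -0.89 in marrow. Only 2 passed, Rpl41 and Rps25 (3.23%, against 2.18% of all 7941 genes). This count rested on the setting: over 32 alternatives it ran from 0 to 28, with 13 without the 3 marrow libraries, 26 with mitochondrial share as a covariate and 28 without marrow control 3 alone. The summed level of the 74 matched genes in marrow was 55400, 41500, 37100 and 44200 CPM in controls and 38000, 41500, 37700 and 33700 CPM after NDEA, and ribosomal protein genes have near-identical copies among which reads may be split. Of the 12 mitochondrially encoded genes 0 passed with limma-voom or limma-trend (2 at an unadjusted p below 0.05), with a median of -0.11 in liver and 0.45 in marrow. Among 61 nuclear genes of oxidative phosphorylation 0 passed, as among 31 of the proteasome, 34 of the spliceosome, 29 of the interferon response, 19 of cholesterol synthesis and uptake, 18 of fatty acid oxidation, 16 of glycolysis, 23 of heme and iron and 37 of lysosome and autophagy (limma-voom). At an unadjusted p below 0.05 these lists held 10, 10, 6, 8, 3, 2, 4, 4 and 6 genes, and limma-trend called 1 in all of them, in the cholesterol list with a prior of 2. Over all 7941 genes 1426 had an unadjusted p below 0.05.

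Among the other lists, Hmgb2 and Hmgn2 of 17 histone and chromatin genes were called above 0 (11.8%). Dcn and Lox of 26 collagen and matrix genes were too (7.69%), and Egr1 of 21 immediate early and heat shock genes (4.76%). So were Eif2s1 of 32 translation factors (3.12%), and Gstp1 and Gstm1 of 15 glutathione transferases (13.3%). Over all 7941 genes 2.18% were called above 0, and each of these list shares rests on 1 or 2 genes. Hmgb2, which bends DNA, had a difference of 2.64, Egr1, an immediate early transcription factor, one of 2.93 and Dcn, the proteoglycan decorin, one of 3.98. Among cell type markers Car2 of 10 erythroid (10%) and Fabp4 of 12 stromal and adipocyte genes (8.33%) passed. Lox and Fabp4 were among the 48 genes that entered through 1 treatment group of a tissue alone. Of 15 macrophage and Kupffer genes 0 passed with limma-voom and 1 with limma-trend, with 5 at an unadjusted p below 0.05. Of the markers of hepatocytes (4), neutrophils (5), B lineage (3), T and NK cells (5), megakaryocytes (4), skeletal muscle (2), endothelium (15) and bile ducts (5), 0 passed with either, and 1 T and NK and 1 endothelial gene had an unadjusted p below 0.05.

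A difference below 0 passed for 19 genes, and in all 19 the liver estimate was below 0 and the marrow estimate above. Fam193b, a gene of little described function, was called in every alternative. It stood at 50.3, 50.7, 75.5 and 53.2 CPM in control livers and 29.4, 36.4, 19.1 and 36.8 CPM after NDEA, and in marrow at 13.9, 10.8, 23.7 and 13.1 CPM and then 31.0, 28.3, 31.1 and 53.9 CPM. Neither pair of groups overlapped, and the difference was -2.25 (SE 0.45, adjusted p = 0.0111, limma-voom). Coq10a, a coenzyme Q-binding protein, had the same pattern with -2.32 (SE 0.54, adjusted p = 0.0214), at 29.5 to 47.8 and 7.86 to 28.4 CPM in liver and 8.13 to 12.3 and 15.3 to 29.4 CPM in marrow. It was not called without the 3 marrow libraries (adjusted p = 0.0800, limma-voom), nor without liver control 4, marrow control 2 or marrow NDEA 3 and 4 together. Fzd4, a Wnt receptor, fell in liver from 26.8 to 57.0 CPM to 8.23 to 14.1 CPM, with a difference of -2.66 (adjusted p = 0.0209). The Fzd4 call ended without marrow control 4 and with liver and marrow of 1 number as 1 rat (adjusted p up to 0.0760, limma-voom). Lrp5, a Wnt co-receptor, differed by -1.58.

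Atf4, a transcription factor of the amino acid stress response, differed by -1.51 and was the 1 of 26 genes of that list to pass. Neither its liver nor its marrow change passed, and the list count ran from 0 to 1 over 32 alternatives. Its marrow levels were 740, 968, 1460 and 1090 CPM in controls and 1350, 1270, 2180 and 2560 CPM after NDEA, with control 3, NDEA 3 and NDEA 4 highest. Acsl1, which activates long-chain fatty acids, differed by -1.08 as the 1 of 18 in fatty acid synthesis. Slc6a9, the glycine transporter that feeds heme synthesis in erythroid cells, stood at 81.7, 137, 249 and 169 CPM in marrow controls and 189, 179, 385 and 485 CPM after NDEA, with control 3, NDEA 3 and NDEA 4 highest. Atg2a, an autophagy lipid transfer protein, stood at 23.6, 42.2, 99.4 and 34.5 CPM and then 102, 74.2, 102 and 97.7 CPM, and Hpn, a membrane protease abundant in hepatocytes, at 6.20 to 56.8 and 35.9 to 70.2 CPM. For all 3 genes control 3 was the highest marrow control. Their differences of -1.96, -1.88 and -1.63 had adjusted p of 0.0465, 0.0326 and 0.0480 (limma-voom). Single libraries left out ended each of these calls: 13 libraries did so for Slc6a9 and for Hpn, and 9 for Atg2a. Over all 32 alternatives 15 ended the Slc6a9 call, 20 the Hpn call and 12 the Atg2a call.

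**Figure D5:**
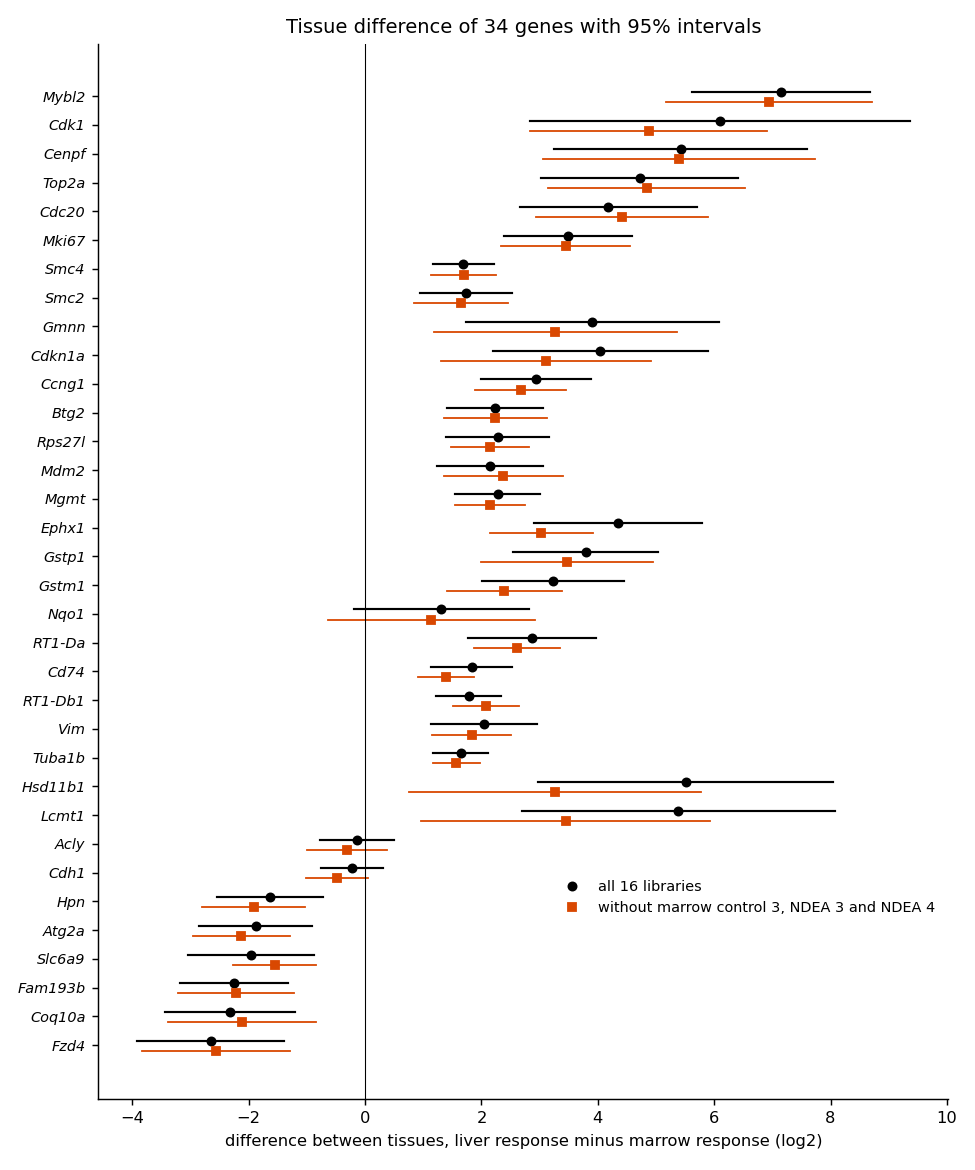
Difference between tissues with its 95% interval (x axis, log2, liver response minus marrow response) for 34 genes, from all 16 libraries (black circles) and without marrow control 3, NDEA 3 and NDEA 4 (orange squares). Smc4 is at 1.69 and 1.70 and Mki67 at 3.49 and 3.45, while Ephx1 moves from 4.34 to 3.03 and Hsd11b1 from 5.51 to 3.26.

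For a few genes the fit to all 16 libraries bounded the difference from both sides, but the bound depended on the setting. Of the 271 genes called in liver, 6 had a 95% interval of the difference within 1 log2 unit of 0 on each side, 1 up and 5 down in liver, and over all 7941 genes 1000 had such an interval. Acly, ATP citrate lyase, which supplies acetyl-CoA to lipid synthesis, stood at 669, 429, 549 and 518 CPM in control livers and 242, 259, 348 and 268 CPM after NDEA. Marrow held 76.3, 98.7, 60.0 and 79.8 CPM in controls and 64.2, 48.2, 41.0 and 33.0 CPM after NDEA. The changes were -0.95 (adjusted p = 0.00117) in liver and -0.81 (adjusted p = 0.0993) in marrow, and the difference -0.14 (95% interval -0.78 to 0.49, limma-voom).

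Plpp3, a lipid phosphatase, differed by -0.35 (-0.91 to 0.20), with NDEA below control in every library of both tissues. Liver held 238 to 340 CPM in controls and 141 to 175 CPM after NDEA, and marrow 60.7 to 79.8 and 40.6 to 60.5 CPM. Cdh1, E-cadherin, differed by -0.22 (-0.75 to 0.31), Rpp21, a ribonuclease P subunit, by -0.29 (-0.98 to 0.40), and Idh1, cytosolic isocitrate dehydrogenase, by 0.10 (-0.66 to 0.86), which was -0.21 after centring and -0.04 with median-of-ratios scaling. After centring the lower limit passed -1 for 4 of these 5 genes, at -1.09 for Acly, -1.3 for Rpp21, -1.23 for Plpp3 and -1.07 for Cdh1. Without the 3 marrow libraries it did so for Rpp21 (-1.34) and Cdh1 (-1.02). The gene up in liver was Hspd1, a mitochondrial chaperonin named after its values were seen, with 0.57 in liver, 0.24 in marrow and a difference of 0.32.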

How the data were processed

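RNA from 16 libraries (4 per group) was counted after a QuantSeq 3' FWD preparation, per the labels' protocols, so counts do not scale with transcript length. The values are whole read counts per gene, as the authors deposited them. The submitters' processing notes name STAR and DESeq2, with no version. Not given in the sources used here are the counting tool, its strand setting, the genome build and the annotation. Because 15591 of 32635 lines were held as 1 quoted cell and 12 records ran over 2 lines, the columns were recorded as another unit than plain counts and a count model was not run. After rejoining, 32623 records were read, 16658 with 0 counts throughout, and the 16313 that carry group totals matched them all.

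The planned fit was limma-voom (limma 3.58.1, R 4.3.3, tested on simulated data) over all 16 libraries, with trimmed means of M values (trims 0.3 and 0.05) for scaling, a prior count of 0.5, no covariate and Benjamini-Hochberg adjustment over the 11245 genes with at least 10 counts in at least 4 libraries. CPM values in the text use the same scaling, except those of Alb and Mpo, which use library totals. The liver, marrow and difference terms come from this 1 fit. No pair of libraries in a group agreed within sampling noise. Intervals are 95%, and the floor of 3 counts covers counting error only. Genes, markers and the 42 gene lists (1256 of 1305 entries matched, 21 by an older symbol) were chosen with earlier results of these data known. Named genes are Mybl2, Smc4 and Ccng1, the 8 largest differences above and 6 below 0 with a mean log2 CPM of at least 2 and 10 counts in each group, 4 each way with the largest opposite changes, up to 3 of each of the 6 lists with most calls, 5 bounded differences, genes fixed by name and up to 6 with counts in 1 group of a tissue alone. Genes outside this rule that complete a count of 5 or fewer or stand for a list were named after their values were seen. Of the genes this rule takes, 1 is not reported here. Promoters are RefSeq's (GRCr8). Alternatives covered scaling, count filters, limma-trend, quality weights, replicate blocks, mitochondrial share and left-out libraries. Groups dosed otherwise were not analysed here.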

Additional observations from a re-analysis of the deposited data

Results flagged for a closer look

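Over the 49 named genes in 4 groups each, 196 sets of 4 libraries were searched for a library far from the other 3, and chance alone flags about 1 in 20 such sets. In control livers these were Cdk1 in replicate 4 (0 against 2.90 to 4.40 CPM), Gtse1 in replicate 4 (2.60 against 0), Ncapg in replicate 2 (2.68 against 0), Ccna2 in replicate 2 (1.15 against 0), Mki67 in replicate 1 (2.90 against 4.73 to 5.20), Fam193b in replicate 3 (75.5 against 50.3 to 53.2) and Mgmt in replicate 3 (40 against 29.0 to 30.4). In NDEA livers they were Rps27l in replicate 3 (490 against 593 to 601 CPM) and Mdm2 in replicate 2 (86.3 against 64.4 to 65.5). In marrow controls they were Mybl2 in replicate 3 (69.5 against 46.5 to 47.9 CPM), Fancb in replicate 3 (19.8 against 15.1 to 15.8), Mki67 in replicate 1 (187 against 129 to 135), Smc2 in replicate 1 (418 against 215 to 226) and Tpm1 in replicate 4 (157 against 113 to 114). In NDEA marrows they were Cdk1, Ephx1 and Fam193b in replicate 4 (0.842 against 24.4 to 40.3 CPM, 0.337 against 8.80 to 16.1, and 53.9 against 28.3 to 31.1), Rbp7 in replicate 3 (4.31 against 9.56 to 11.2) and Atg2a in replicate 2 (74.2 against 97.7 to 102).

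The treatment-by-tissue term, which tests the difference itself, was called (limma-voom) for the genes given here. Among cell cycle genes it was 7.14 for Mybl2, 6.10 for Cdk1, 5.87 for Ncapg, 5.42 for Cenpf, 4.83 for Gtse1, 4.77 for Cdc6, 4.76 for Aurkb, 4.74 for Cenpw, 4.72 for Top2a, 4.63 for Ccna2, 4.18 for Cdc20, 3.90 for Gmnn, 3.49 for Mki67, 1.74 for Smc2 and 1.69 for Smc4. Among genes of damage response, repair and detoxification it was 5.26 for Fancb, 4.34 for Ephx1, 4.05 for Cdkn1a, 3.79 for Gstp1, 3.23 for Gstm1, 2.94 for Ccng1, 2.28 for Mgmt, 2.28 for Rps27l, 2.23 for Btg2 and 2.15 for Mdm2. Elsewhere above 0 it was 5.75 for Rbp7, 5.51 for Hsd11b1, 5.38 for Lcmt1, 4.76 for Cd44, 2.88 for RT1-Da, 2.04 for Vim, 1.83 for Cd74, 1.78 for RT1-Db1, 1.64 for Tuba1b and 1.51 for Tpm1. Below 0 it was -2.66 for Fzd4, -2.32 for Coq10a, -2.25 for Fam193b, -1.96 for Slc6a9, -1.88 for Atg2a and -1.63 for Hpn.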

How the results depend on the processing

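The 192 calls (173 above 0, 19 below) became 122 (99 above) for genes with 10 counts in each group, 350 (302 and 48) with mitochondrial share as a covariate, and 76 (72 and 4) without marrow NDEA 3 and 4. Centring gave 106 above and 91 below, fitting the 7941 genes alone 107 above, and a minimum of 20 counts 29 below. Leaving out 1 library gave 84 to 451 calls, 77 to 381 above and 7 to 70 below. The list counts above 0 ran, over the same fits, from 5 to 9 for p53 targets, 12 to 31 for mitosis and spindle, 1 to 4 for condensin, cohesin and SMC genes, 3 to 7 for NRF2 targets, 5 to 6 for MHC class II, 4 to 10 for tubulins and actin and 0 to 28 for ribosomal proteins. Without marrow NDEA 3 and 4 they were 5 for p53 targets, 2 for the SMC list and 1 for tubulins and actin. Mitosis and spindle fell to 17 with the 7941 genes fitted alone, 14 with 10 counts in each group and 15 with limma-trend and a prior of 0.5, and the SMC list to 2 in the first of these fits, with 20 counts and with 10 counts in each group. NRF2 targets fell to 2 with limma-trend and a prior of 0.5, and tubulins and actin to 4 after centring or without a count filter. The cause of these shifts was not tested.

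The sign turned for the tissue difference of Idh1 (-0.0396 by median of ratios, -0.21 centred, -0.34 without marrow NDEA 3 and 4, -0.17 without these and marrow control 3, -0.20 without marrow NDEA 4, and -0.20 to 0.32 over the fits without 1 library) and for the tissue difference of Acly (0.0077 without marrow NDEA 1, and -0.32 to 0.0077 over those fits). Centring turned the list medians of translation factors (-0.0789), oxidative phosphorylation (-0.0676) and the spliceosome (-0.0831). Of 49 named genes 25 kept their side of the threshold and their direction in every alternative. Deviations of same-numbered libraries correlated at -0.0163 to 0.033 between liver and marrow, and at up to 0.0592 between control and NDEA of a tissue, none above 0.1. Such values cannot tell whether liver and marrow of 1 number came from 1 rat. The main fit did not take the numbers as pairs. With the number as a replicate block in each tissue 182 genes were called, and with liver and marrow of 1 number as 1 rat 154, of which 12 below 0. The median SE of the difference, 0.59 against 0.37 in liver alone, limits what could be called.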
